A study of Caenorhabditis elegans with 4 samples.

Results

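The regions described here are the 845 stretches of chromosome III at which the PQM-1::GFP fusion protein was found in L3 larvae, the stage before the last larval one, of Caenorhabditis elegans. They are all rows of the deposited peak list that name chromosome III, 845 of 5803 regions or 14.6% of the list, and no measured value was used to pick them. The worms were hermaphrodites of strain OP201, kept at 20 °C and fixed with 2% formaldehyde. The strain is an unc119(ed3) mutant with the integrated transgene wgIs201, made by bombardment, in which pqm-1 is joined to TY1, EGFP and FLAG tags, together with a copy of unc119. Every library, input included, came from this 1 strain, and whole animals were used, so that binding in different tissues is merged. Per the labels, each of 2 extractions gave 1 input library and 1 library of chromatin pulled down with goat anti-GFP serum, and the analysed values are 1 list combined over all 4. No spread between replicates could therefore be computed, and every difference below is a description, read beside its counting error or the variation along the chromosome.

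PQM-1 is a C2H2 zinc finger transcription factor. It is best known from the intestine, where it and the FOXO factor DAF-16 occupy the nucleus in opposite conditions of insulin-like signalling, and it was linked to the DAF-16-associated element found near many stress and growth genes. In ChIP-seq, a bound region appears as a stretch of the genome with more tags (mapped reads) in the ChIP than in the input control. Autosomes of this nematode have gene-rich centres with little recombination and arms that recombine often and hold more repeats, and no such biological border was used below. Instead, chromosome III was divided by peak midpoint into 3 parts of equal length, here called the left arm, the centre and the right arm, with its largest listed coordinate, 13771388 on WormBase WS180, as its length. The left arm ends at position 4590462 and the centre at 9180925.

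The strength of each region was read from its q-value, the only value the authors deposited, and from the whole numbers of ChIP tags and scaled control tags that the q-values resolve into. The whole list was 45.1% of 12873 tested regions, a number recovered from the q-values rather than stated. All 845 chromosome III regions gave a single pair of tag numbers. They held a median of 80 ChIP tags (25th and 75th percentiles 56 and 119) against 28 scaled control tags (19 and 38). The median ratio of ChIP to control tags was 2.88 (2.29 and 3.77) and the median width 375 bp (297 and 512). On the other autosomes the medians ran from 2.45 on I to 3.17 on IV for the ratio and from 368 bp on IV to 410.5 bp on I for the width, so that chromosome III lay inside their range in both. The chromosome III regions were 14.6% of the full list and 128 of the best 1000 rows, or 12.8% (95% Clopper-Pearson interval 10.8 to 15.03%). That interval and all those below cover counting error only.

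By this division, binding was spread over chromosome III more evenly than over any other autosome. The left arm held 251 regions, the centre 320 and the right arm 274. This gave 54.7 regions per Mb on the left, 69.7 in the middle and 59.7 on the right. The centre thus held 37.9% of the regions (95% Clopper-Pearson interval 34.6 to 41.2%), while an even spread would give each part the same share. On the other 4 autosomes the middle share ran from 45.0% on V (interval 42.2 to 47.8%) to 47.7% on II (44.3 to 51.1%), and each of these shares was higher than the upper bound for III. The interval of III did not overlap that of I, II, IV or V. The X chromosome, which is not an autosome, had a middle share of 37.7% (interval 35.0 to 40.4%). A low middle share was thus not particular to chromosome III. Neighbouring regions cluster, so these intervals are too narrow, and no test was made, since 1 chromosome set against 4 has no replicate.

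The even spread came from both sides. Outside its centre, chromosome III held 57.2 regions per Mb, more than the arms of I (29.1), II (44.0), IV (49.3) and V (49.4). In its centre it held fewer regions per Mb than II (80.1), IV (81.4) and V (80.9), and more than I (49.97). The density of the middle divided by that of the arms was 1.22 on III, against 1.64 on V, 1.65 on IV, 1.72 on I and 1.82 on II. On X it was 1.21. On the log2 scale, this ratio was 0.29 on III and 0.77 ± 0.070 on the others (SD, n = 4 autosomes), a difference of -0.48. Among the best 1000 rows of the list this difference was -0.88, and with the inner 2 of 4 equal parts as the centre it was -0.31. The median distance of a region from the midpoint of its chromosome, as a percentage of the distance from the midpoint to the end, was 42.7% on III and 35.7 to 37.9% on the other autosomes. On X it was 45.9%.

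**Figure D1:**
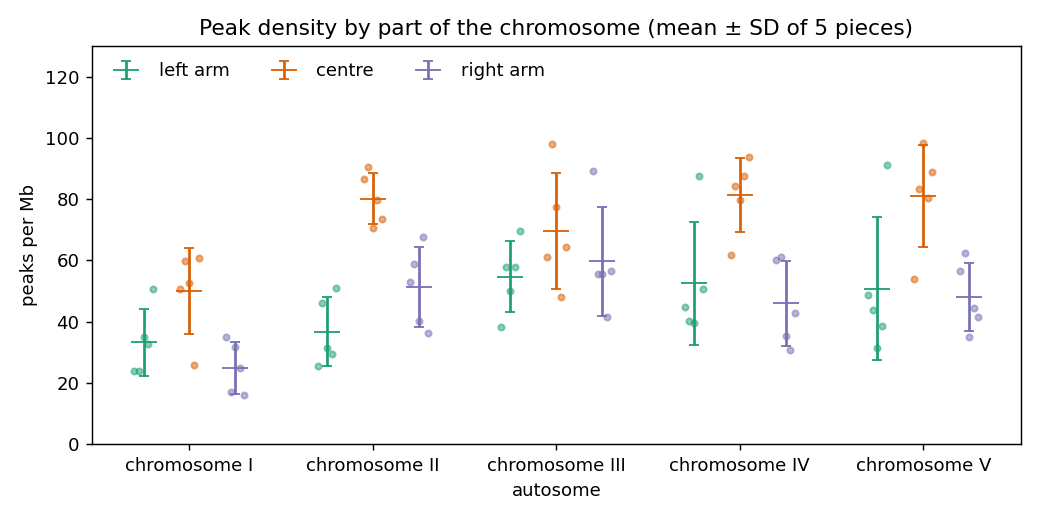
Regions per Mb in the left arm, centre and right arm of each autosome. Small points are the 5 equal pieces of a part, and the wide mark and bar are their mean and SD. On chromosome III the pieces of all 3 parts overlap, and the means run from 54.7 to 69.7 per Mb.

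To see this at a finer scale, each part was cut into 5 equal pieces. On III the pieces held 54.7 ± 11.6 regions per Mb on the left (SD, n = 5 pieces), 69.7 ± 19.0 in the middle and 59.7 ± 17.7 on the right, so that the centre exceeded the left arm by less than the SD of its own pieces, though by more than that of the left ones. On II the middle pieces held 80.1 ± 8.29 per Mb, against 36.7 ± 11.2 on the left and 51.3 ± 13.0 on the right. Of the 10 outer pieces of III, 8 were at least as dense as its sparsest middle piece, compared with 5 of 10 on I, 3 on V, 1 on IV and 0 on II. This count turns on a single middle piece of III, at 47.9 per Mb. The next sparsest held 61.0 per Mb, which only the outer pieces at 69.7 and 89.3 per Mb reached. By the same change I, IV and V each kept an outer piece, at 50.8, 87.6 and 91.1 per Mb, and II had 0 already. The densest piece of chromosome III spanned positions 5508556 to 6426647 and held 90 regions, or 98.0 per Mb. Next came a piece at the inner edge of the right arm, 9180926 to 10099017, with 82 regions or 89.3 per Mb. Between them lay the sparsest middle piece, 7344741 to 8262832, with 44 regions or 47.9 per Mb. The pieces beside it held 77.3 per Mb on its left and 64.3 on its right. The lowest density of all was at the left end of the chromosome, where the first piece held 35 regions, or 38.1 per Mb. Chromosome III therefore had 2 dense belts with a thinner stretch between them, and the second belt begins just past the border of the centre. Dense pieces with thinner ones between them also occurred on other autosomes. In consecutive pieces from left to right, the densities per Mb were 59.7, 52.8, 25.9 and 60.7 on I. They were 91.1, 53.8, 83.2 and 98.3 on V, and 87.6, 50.7, 61.8, 84.1, 79.9, 87.6 and 93.6 on IV. With the inner 2 of 4 equal parts as the centre, the ratio of inner to outer density on III was 1.44, still below the 1.73 to 1.83 of the other autosomes. On X it was 1.23.

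**Figure D2:**
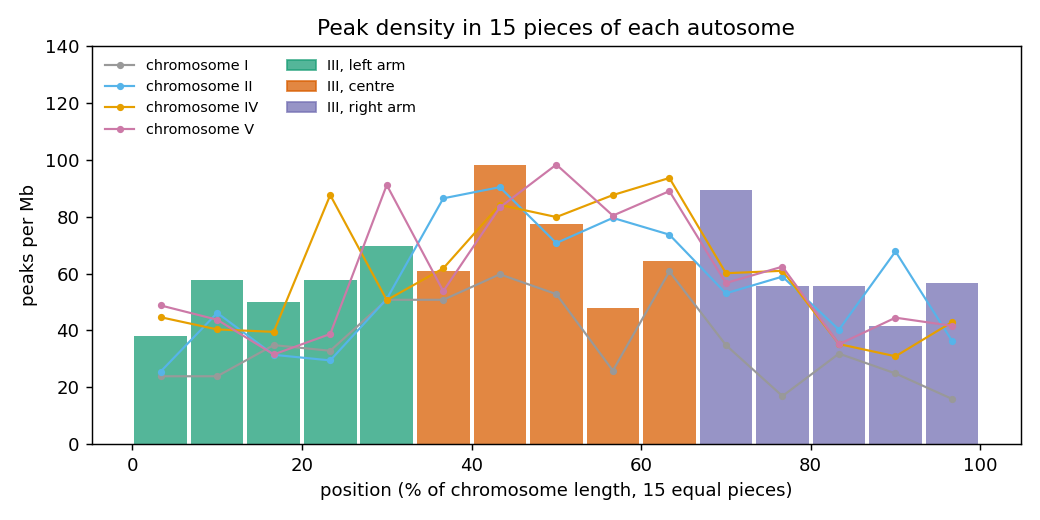
Regions per Mb in 15 equal pieces along each autosome, with position as a percentage of chromosome length. Bars are chromosome III, coloured by part, and lines are chromosomes I, II, IV and V. The 2 tallest bars, at 98.0 and 89.3 per Mb, stand on both sides of lower bars of 77.3, 47.9 and 64.3 per Mb in the centre.

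Strong regions were shared among the parts nearly as all regions were. A q-value under 1e-10 was reached by 222 chromosome III regions, or 26.3%, against 29.3% of the whole list. Of these, 69 lay in the left arm, 85 in the middle and 68 on the right, which is 15.03, 18.5 and 14.8 per Mb. The centre held 38.3% of them, close to its 37.9% of all regions. On the other autosomes the centre held from 46.0% (IV) to 51.5% (I) of such regions. A q-value under 1e-20 was reached by 82 regions on III, or 9.70%, beside 10.4% of the list, with 24, 35 and 23 from left to right. With the 845 regions split by q-value into 4 groups, the centre held 38.2% of the strongest group and 39.3% of the weakest. From the strongest to the weakest, the 4 groups had median widths of 513, 400, 332 and 270 bp and median ratios of 4.41, 3.10, 2.50 and 2.17.

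**Figure D3:**
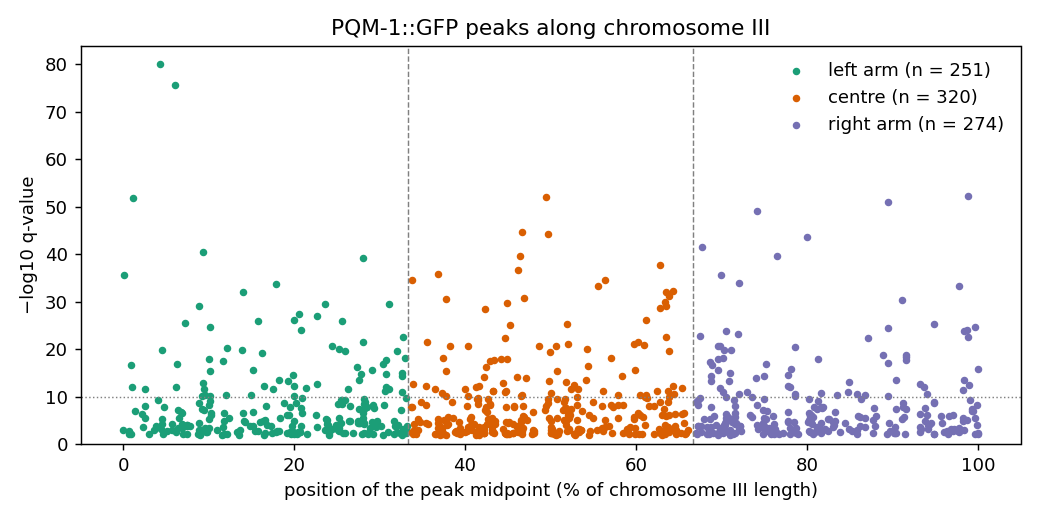
Strength of every chromosome III region, as −log10 of its q-value, against the position of its midpoint as a percentage of chromosome length. Colours mark the parts, dashed lines their borders and the dotted line a q-value of 1e-10, which 69, 85 and 68 regions passed from left to right.

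By q-value, the 2 strongest regions of the chromosome lay in the left arm. The first, at III:599092-601196, was 2105 bp wide and held 571 ChIP against 95 control tags, a ratio of 6.01 (95% interval 4.83 to 7.55, q = 1.03e-80). The second, at III:832794-836107, was the widest region of chromosome III with 3314 bp, and held 769 against 200 tags, a ratio of 3.85 (3.29 to 4.52). These 2 ranked 7 and 11 in the whole list, and the next chromosome III region ranked 40. A narrower region closer to the left end, III:154138-154580, held 264 against 21 tags and had the highest ratio of the chromosome, 12.6 (8.06 to 20.7). This interval overlapped those of the highest ratios on the right arm, given below, so its first place is not resolved. It lay above those of both wider regions, so the widest and the most enriched regions were different ones. The remaining leaders of the left arm lay at III:1279061-1279629, with a ratio of 7.22 (5.08 to 10.5), and III:3866675-3867798, with 4.11 (3.26 to 5.23). The lowest ratio on the left was 1.68 (1.14 to 2.50), at III:640271-640722.

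In the centre the leading regions were mostly broad, and all but the fifth lay between positions 6395695 and 6850833. These were not all near neighbours, as a peak-free stretch of 109.5 kb, from 6693624 to 6803086, lay among them. The strongest spanned III:6817710-6819883, 2174 bp, with 434 against 90 tags and a ratio of 4.82 (3.83 to 6.12). The next 3 lay on both sides of it, at III:6849555-6850833 with a ratio of 6.45 (4.73 to 8.96), III:6421728-6423291 with 4.63 (3.64 to 5.94) and III:6395695-6396836 with 5.58 (4.16 to 7.63). The fifth, III:8656841-8657272, was 432 bp wide and had the highest ratio of the centre, 8.80 (5.81 to 13.9). The widest region there, III:8799817-8802541, spanned 2725 bp with 584 against 242 tags, a ratio of 2.41 (2.07 to 2.82). The lowest was 1.61 (1.196 to 2.17), at III:7728085-7728854.

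On the right, 3 of the 5 leading regions were compact and had ratios over 10. The strongest region, III:13605766-13607117, lay near the right end and held 357 against 55 tags, a ratio of 6.49 (4.88 to 8.79). It was followed by III:12318662-12319226 with a ratio of 10.9 (7.24 to 17.2), III:10216428-10217338 with 6.03 (4.56 to 8.11), III:11026523-11026968 with 11.5 (7.24 to 19.1) and III:9326358-9326826 with 11.9 (7.38 to 20.5). The intervals of the 3 highest overlap each other and that of III:154138-154580 on the left, so their order is not resolved. On III, 5 regions had a ratio of 10 or more, or 0.592%, beside 0.465% of the list. Of these, 2 lay on the left, 3 on the right and 0 in the middle, counts too small to compare the parts. The other autosomes had 0 such regions in the centre of I, 0 in that of II, 3 in that of IV and 1 in that of V, beside 1, 5, 8 and 3 in their arms. The lowest ratio of the whole chromosome, 1.40 (1.15 to 1.69), was at III:10224449-10225338, where the control reached 212 tags per kb.

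Ratios differed little between the parts. The median ratio was 3.03 on the left (25th and 75th percentiles 2.34 and 4), 2.84 in the middle (2.29 and 3.67) and 2.81 on the right (2.22 and 3.59). Summed over all regions of a part, ChIP over control tags gave 3.26 (95% interval 3.18 to 3.35) on the left, 3.06 (2.99 to 3.13) in the middle and 2.97 (2.90 to 3.04) on the right. The left interval lay above both others. These intervals take the scaled control as a plain count and leave out the spread between regions, which was wide by the quartiles above. The control differed between the parts as well. In regions of 300 to 500 bp the median control was 64.6 tags per kb on the left, 75.3 in the middle and 73.2 on the right, while the median ChIP density of the same regions was 212, 229 and 219 tags per kb. The quartiles of the control overlapped widely, at 55.4 to 84.2 on the left and 61.1 to 95.4 in the middle. The control is the divisor of the ratio and enters the call. In a further calculation, the control of each part was raised to that of the highest part of its chromosome. Then 210 of the 251 left regions and 265 of the 274 right ones still met the p-value limit of the list. The centre had the highest control on III, so its 320 regions were kept by construction. With this change the ratio of middle to outer density on III was 1.35, and 1.63 on the lowest other autosome. The change can only remove listed regions and cannot add any that were missed where the control was high. Whether the control shapes the spread was not tested. On III, 76 regions had a ratio of 5 or more (8.99%, against 11.3% of the list), namely 28 on the left, 23 in the middle and 25 on the right. A ratio under 2 was found in 87 regions (10.3%, against 8.96%), namely 21, 30 and 36.

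Width varied far more within a part than between parts. The median width was 373 bp on the left, 365.5 bp in the middle and 388.5 bp on the right. A width of at least 1 kb was found in 31 regions, or 3.67%, beside 4.6% of the list, with 6 on the left, 13 in the middle and 12 on the right. At the other end, 13 regions were under 100 bp wide, and the narrowest, III:2845342-2845345, spanned 4 bp with 15 against 2 tags, a ratio of 7.50 whose interval ran from 1.74 to 67.6. Across the 845 regions, Spearman's rho was 0.13 between width and ratio and -0.64 between width and q-value, and 0.0069 between the distance from the midpoint of the chromosome and the ratio. Regions are not independent and share the same libraries, so these are descriptions.

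**Figure D4:**
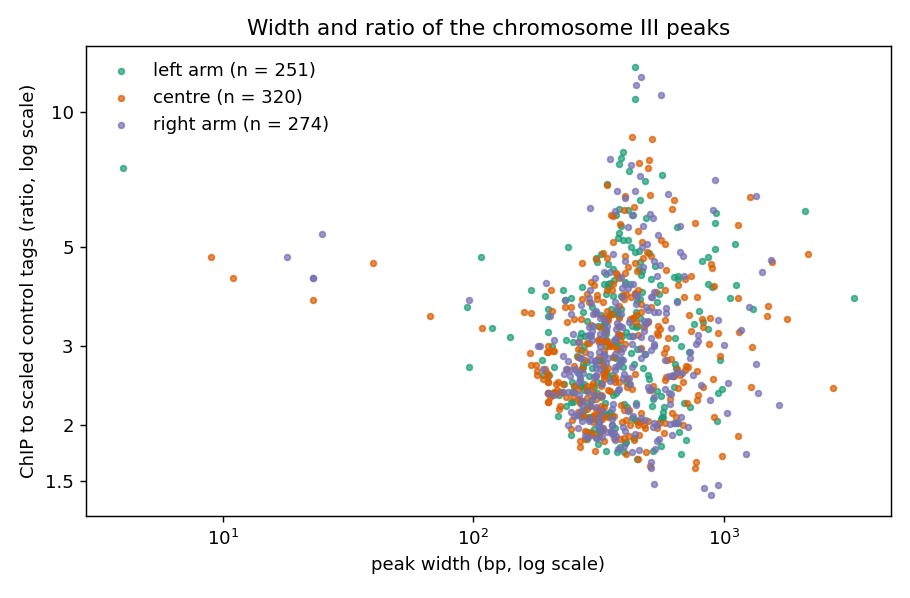
Ratio of ChIP to scaled control tags against width for the 845 chromosome III regions, both on log axes and coloured by part. The parts overlap over the whole range. All regions with a ratio of at least 10 are between 442 and 565 bp wide and belong to the left or right arm.

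How closely the regions lay together differed between the arms of chromosome III. A chain is used here for neighbouring regions separated by gaps of at most 1 kb. The shortest gap in the list was 202 bp on III and 200 to 211 bp on the other autosomes. Chains therefore hold no gaps shorter than that. Chains held 43 of the 251 left regions, or 17.1% (95% Clopper-Pearson interval 12.7 to 22.4%), 110 of the 320 middle regions, or 34.4% (29.2 to 39.9%), and 103 of the 274 right regions, or 37.6% (31.8 to 43.6%). The left interval lay below both others, although the left arm had nearly as many regions per Mb as the right. A region in a chain always brings a neighbour with it, so these intervals are too narrow, and the difference was not tested. Of the other autosomes, II also had a low left share, 13.4% (8.84 to 19.1%), while I had 22.2%, IV 27.8% and V 31.1%. The right share of III was higher than those of I (18.4%), II (29.5%), V (29.0%) and IV (33.6%), but its interval overlapped those of II, IV and V. With gaps of up to 500 bp the shares on III were 7.97%, 18.1% and 17.9% from left to right. Among regions with a q-value under 1e-10 they were 7.25%, 17.6% and 19.1%, and with gaps of up to 2000 bp 35.1%, 48.75% and 55.1%. The left share was the lowest each time. The difference shrank in percentage points, while under the stricter limits all shares fell as well. The median gap between neighbours was 9.44 kb on the left of III, 6.38 kb in the middle and 5.80 kb on the right.

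**Figure D5:**
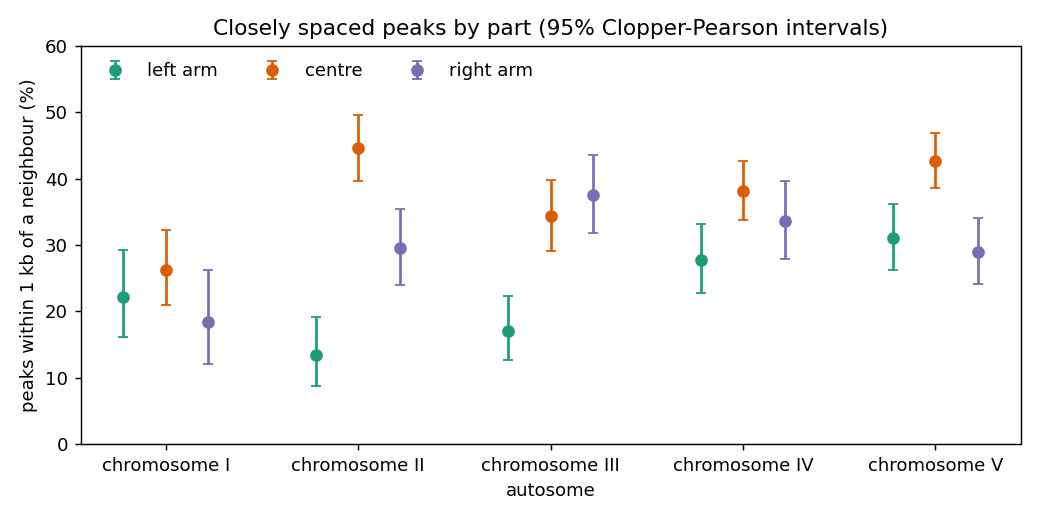
Percentage of regions that lie within 1 kb of a neighbour, by part of each autosome, with 95% Clopper-Pearson intervals. The intervals treat the regions of a chain as independent and are too narrow. The left arm of III, at 17.1%, lies below its centre and right arm, at 34.4% and 37.6%.

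In all, chromosome III had 86 chains of 2 regions and 25 of 3 or more, of which 3 lay on the left, 11 in the middle and 11 on the right. This number was 9 with gaps of up to 500 bp and 54 with gaps of up to 2000 bp. All 3 on the left joined 3 regions, with ratios of 2.44 to 2.67 at III:2723454-2725436, 3.29 to 4.95 at III:2758627-2761177 and 3.37 to 4.12 at III:4493412-4496516. In the middle the longest, III:6176808-6180622, joined 5 regions in 3815 bp. Its members were unequal, with ratios of 3.31, 2.89, 2.73, 8.70 and 6.05 from left to right. Near the right end, III:13603423-13608356 joined 4 regions in 4934 bp, among them the strongest region of the right arm, with ratios of 4.39, 2.88, 6.49 and 4.87. Whether such chains are separate sites or 1 domain that the caller split was not tested. The median ratio of the 256 regions in chains was 3.02, with 34.8% of them under a q-value of 1e-10. The 304 regions with their nearest neighbour at 1 to 5 kb had a median ratio of 2.90, with 24.7% under that q-value. For the 224 at 5 to 20 kb these values were 2.70 and 21.4%, and for the 61 at more than 20 kb they were 2.62 and 16.4%. For most lone regions the difference in ratio was thus small. The median width fell in the same order, from 411.5 bp in chains to 376.5, 359.5 and 343 bp. Wider regions of III had lower q-values (Spearman's rho -0.64), so these shares do not reflect the ratio alone. The ratios of neighbouring regions were hardly related on III, with a Spearman's rho of 0.038 over 844 pairs. On the other autosomes this value was also low, from 0.090 on I to 0.138 on II.

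Long gaps without any called region were about equally frequent in the 3 parts. Stretches of at least 50 kb numbered 71 on III and together took up 5.56 Mb, or 40.4% of its length, within the 39.9% (IV) to 59.3% (I) of the other autosomes. They numbered 23 on the left, 23 in the middle and 25 on the right, which is 5.01, 5.01 and 5.45 per Mb. On each of the other autosomes the centre had fewer per Mb than either arm. The values were 5.18 against 6.37 and 6.57 on I, and 4.52 against 6.68 and 5.30 on II. They were 2.92 against 4.98 and 5.84 on IV, and 3.87 against 5.45 and 6.60 on V. The longest peak-free stretch of III, 12617413 to 12833055 in the right arm, spanned 215.6 kb, and the next, 10882202 to 11026522, 144.3 kb. The second ended directly at the strong region III:11026523-11026968. On the left the longest ran from 2966881 to 3104583 (137.7 kb) and from 1699172 to 1834129 (135.0 kb). A stretch from 9104352 to 9228138 (123.8 kb) crossed the border between the centre and right arm, and was counted in the centre by its midpoint. The longest that lay wholly in the centre ran from 6693624 to 6803086 (109.5 kb) and from 4912649 to 5018076 (105.4 kb).

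At the scale of 100 kb, the densest window of chromosome III held 18 regions, at 7100001 to 7200000. The densest window of the left arm, 3800001 to 3900000, held 16. On the right 3 windows, which began at 9700001, 9800001 and 10300001, tied at 13 regions. A q-value under 1e-10 was found for 3 regions of the middle window, for 3 of the left one and for 4, 0 and 2 of the right ones, numbers too small to set against the 26.3% of all chromosome III regions. Of the 138 windows, 6 (4.35%) held no region, beside 3.27% on II, 3.33% on V, 4% on IV and 13.2% on I. The variance of the window counts divided by their mean was 2.50 on III and 2.14 to 2.84 on the other autosomes. On this scale the unevenness of chromosome III lay within the range of the other autosomes.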

How the data were processed

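Binding of PQM-1::GFP was measured by ChIP-seq with an anti-GFP antibody against input DNA. Per the file headers, the peak list is on WormBase WS180 and names PeakSeq as its source. The authors deposited 1 q-value per peak, with no column for a single library. The aligner, the PeakSeq version, how the 2 replicates were combined and the library depths are likewise not given in the sources used here. ChIP and scaled control tags were recovered by reading the q-value as a binomial lower tail (chance 0.5) times the number of tested regions over the row number. A single number of tested regions, 12873, matched 200 of 200 sampled peaks (tolerance 1e-11 on the natural log), and the next best matched 1. The recovery was tested on 5800 simulated peaks over all chromosomes, of which 99.8% returned the true pair and 0 a wrong one. Their q-values were made with the same formula, so they test whether it can be inverted and not whether it holds. The control is rounded and scaled by the caller, so it is not a number of input reads, and the intervals of ratios only approximate counting error. Tag numbers, about 80 ChIP against 28 control at the median, set the precision of a single ratio.

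Parts, pieces, chains, stretches and windows were computed from the deposited coordinates with Python 3.11.15, NumPy 2.4.6, pandas 2.3.3 and SciPy 1.17.1. Intervals are exact Clopper-Pearson intervals at 95%, turned into a ratio for tags. No test over regions or bins was made. Named were, in each part, the 5 lowest q-values, the highest and lowest ratio among regions of 100 bp or more, the widest region, the densest window of 100 kb, the chain with most regions and the 2 longest stretches; any others were picked with their values in view. The members and rules were chosen with earlier results of these data known. The gene table at hand is of another build, so genes, sequences and gene density at these positions were not analysed here.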

Additional observations from a re-analysis of the deposited data

How the results depend on the processing

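Of 51 alternatives over 9 results, 40 stayed within the counting interval of the value reported, or within 1.5 times for a count. These are not independent checks. Taking the start of a region as its position changed no result on the parts, and several results re-express the same counts by part. The middle share of chromosome III lay between 36.7% and 40.3%. The log2 ratio of middle to outer density on III minus the mean of the other autosomes stayed negative throughout and lay between -0.88 and -0.31, beside -0.48 as reported. It was -0.88 for the best 1000 peaks of the list, where III had 128 regions, -0.39 with the raised control or without the densest outer piece of III, and -0.31 with the inner 2 of 4 equal parts as the centre. The ratio of left to right density was 0.92, and 0.79 to 1.06 under the alternatives, so which arm is denser is not resolved. The median ratio went from 2.88 to 3.03 in regions of 300 to 500 bp, to 4.36 for a q-value under 1e-10 and to 3.09 as summed tags. The median ratio of the arms minus that of the middle went from 0.039 to 0.33 for a q-value under 1e-10. For that limit the median width was 513.5 bp, and the mean of all regions was 447 bp, beside a median of 375 bp. Chains of 3 or more numbered 25, but 9 with gaps of up to 500 bp and 54 with gaps of up to 2000 bp. The share of regions in chains in the centre and right arm exceeded that of the left by 18.7 percentage points, by 10.05 with gaps of up to 500 bp and by 11.1 for a q-value under 1e-10. This comparison, the limit on the ratio, the raised control and leaving out the densest pieces were chosen after seeing the data. No paired analysis was possible because only a single list, merged from all libraries, was analysed, so that leaving out a replicate was not possible either. Depth per library was not analysed here.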

Other observations

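All regions named in the following sentences were picked with their values in view. The first listed region, III:2800-3248, had a ratio of 2.24 (95% interval 1.37 to 3.75), and the second, III:14678-15608, held 256 ChIP against 43 control tags, a ratio of 5.95 (4.30 to 8.43). At the other end, where the last region sets the length used here, III:13766393-13767345 had a ratio of 3.42 (2.50 to 4.76), and the last region, III:13771080-13771388, one of 1.88 (1.201 to 2.97). The longest part of chromosome III without a region under a q-value of 1e-10 ran from 13059625 to 13464146, 404.5 kb, and held 17 weaker regions. It was followed by 8998482 to 9289724, 291.2 kb with 13 weaker regions, across the border between the centre and right arm. In the chain at III:10818220-10822970, 4 regions alternated between ratios of 2.22, 4.13, 1.86 and 4.30. The chain III:8794101-8797855, with 4 regions of ratio 2.04 to 2.85, lay next to the widest region of the centre.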
